A study of Mus musculus with 36 samples.

Results

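The nuclear-encoded respiratory chain was described across 36 mouse RNA sequencing libraries. Its members were the protein-coding gene models whose symbols place them in complexes I to V of the mitochondrial inner membrane (Nduf with a letter a, b, c, s or v, Sdh a to d, Uqcr, Cox 4 to 8 and Atp5), without Cox4i2. The rule used names and no measured value, and it found 97 of the 21900 protein-coding models in each deposited table, carrying 96 distinct symbols. Of these, 36 encode subunits of complex I, 4 of complex II, 8 of complex III, 19 of complex IV and 18 of complex V, while 8 encode assembly factors of complex I and 4 assembly factors of complex II. Atp5o has a second gene model on the same strand, called Atp5o-2 below, which was listed at 0 in every library.

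The respiratory chain passes electrons from NADH (complex I) and succinate (complex II) through complex III to oxygen at complex IV. The proton gradient built on the way drives complex V, the ATP synthase. Most subunits are made from nuclear genes, a few core ones come from the mitochondrial genome, and macrophages are known to alter the balance of oxidative phosphorylation and glycolysis when they are activated.

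The libraries formed 12 groups of 3. Each of 4 cell populations had received OMV-SIRP-G, OMV-SIRP or phosphate-buffered saline (PBS). OMV stands for outer membrane vesicle, a particle shed by bacteria; the sources used here spell out neither suffix, nor a dose or duration. Bone marrow gave the granulocyte-macrophage progenitors (GMP) and the monocytes. The other populations were labelled tumour-associated macrophages (TAM), and came from tumours of the melanoma line B16-F10 or of the colon carcinoma line MC38. All groups carried the WT genotype, and no strain or age is given. The design text says that 3 samples of a group were pooled, which can mean pools behind 1 library or 3 libraries kept in a group. Since no label ties libraries to separate mice, p-values measure only how much these libraries differ, and that spread may be technical.

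The values were fragments per kilobase of gene length, scaled for sequencing depth (FPKM), as the authors deposited them. Total reads assigned to genes ran between 13036567 and 19822660 per library. GMP and monocytes shared a table, and each tumour model had its own, so levels in different tables are set side by side and were not tested. Within a population, groups were compared with limma on log2(FPKM + 1) over all genes that reached 1 FPKM in 3 or more libraries. A gene was called at an adjusted p under 0.05, Benjamini-Hochberg over all genes of that comparison, and every log2 change below is on the log2(FPKM + 1) scale, which understates changes of low genes.

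The tissue labels were checked against marker genes, as summed FPKM per library. The 8 macrophage and monocyte markers summed to between 6186 and 6494 in B16 TAM after OMV-SIRP-G, between 2687 and 3449 after OMV-SIRP, and between 1883 and 1966 after PBS. In MC38 TAM they summed to between 2741 and 2914 after OMV-SIRP-G, between 1540 and 4864 after OMV-SIRP, and between 243 and 462 after PBS, so the PBS libraries labelled TAM held the least macrophage RNA. The 5 melanoma markers summed to between 773 and 879 FPKM in B16 TAM after OMV-SIRP-G, between 2288 and 2531 after OMV-SIRP, and between 2800 and 3053 after PBS. The bone marrow GMP libraries carried the 7 progenitor markers at between 5046 and 6293 FPKM, and the 8 neutrophil markers at between 27299 and 59436. In bulk RNA, fewer cells of a type and less RNA per cell cannot be told apart, and this holds for every difference below.

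Several libraries stood apart. Monocyte PBS replicate 2 had a member sum of 9377 FPKM, against 3729 and 3681 in PBS replicates 1 and 3, and the lowest of the GMP PBS libraries was replicate 1 with 2901, against 3640 and 3889. In MC38 TAM, OMV-SIRP replicate 2 and PBS replicate 3 were the least like their groups, with 11710 and 12163 genes at 1 FPKM or more, against between 12905 and 13731 in the other 7 libraries. Results that rest on these libraries are given with and without them.

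Start-site sequences were looked up for the members in the RefSeq promoter table for GRCm38.p6, which covers 250 bases before to 50 bases after each start. It matched 79 of the 97 members. Short stretches around letters that match known binding patterns of respiratory gene regulators are shown first. Each pattern occurred in members of more than 1 complex, though 36 of the 79 windows held none of the 3. All genes shown are among the members called higher in MC38 TAM below. Of the 15 such members with a window, 9 held at least 1 of the 3 patterns, as did 34 of the other 64. Whether the patterns go with the calls was not tested. NRF1, a regulator of many respiratory genes, is known for a pattern of GCGCA, any base and GCGC. On the other strand it reads GCGC, any base and TGCGC, the form matched in Atp5o and Ndufa8. Members of complexes I to V held the pattern, and those shown belong to complexes I, II and V. The match is in capitals and each stretch is on the minus strand.
Atp5k, chr5:108434430-108434459: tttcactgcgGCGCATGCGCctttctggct
Atp5g2, chr15:102671070-102671099: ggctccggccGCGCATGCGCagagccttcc
Atp5o, chr16:91931602-91931631: gctggcgcgcGCGCGTGCGCtctggcgcca
Sdha, chr13:74350319-74350348: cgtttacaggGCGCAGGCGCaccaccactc
Ndufa8, chr2:36049349-36049378: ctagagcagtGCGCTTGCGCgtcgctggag

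GABPA, an ETS family factor that regulates respiratory genes, is known for CCGGAAG, which reads CTTCCGG on the other strand. Members of complexes III, IV and V that are described below held it, again on the minus strand with the match in capitals. Ndufa3, on the plus strand, is shown for the YY1 letters AAGATGGC.
Uqcr11, chr10:80406871-80406897: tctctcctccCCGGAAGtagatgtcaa
Uqcrh, chr4:116075064-116075090: gtatgccgcaCTTCCGGccaggtcgcc
Cox8a, chr19:7217605-7217631: ttccgaaataCTTCCGGctcgggcgtc
Atp5k, chr5:108434371-108434397: ctcagttgagCTTCCGGcgcgaaggtc
Ndufa3, chr7:3617385-3617412: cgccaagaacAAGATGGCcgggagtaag

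Searched on both strands, the NRF1 letters were in 20 of the 79 matched windows (25.3%), against 4.78% of all 27025 windows of the same length in the table and 6.60% of the 17492 windows of protein-coding genes. The GABPA letters were in 21 (26.6%), against 9.12% of all and 11.9% of protein-coding windows. The YY1 letters were in 9 (11.4%), of which 7 belonged to complex I, against 2.88% of all and 3.22% of protein-coding windows. At least 1 of the 3 patterns was in 43 member windows (54.4%), against 15.2% of all and 19.55% of protein-coding windows, and 7 windows held 2 of the 3. The hypoxia response letters ACGTG, by contrast, were in 18 windows (22.8%), against 19.7% of all and 20.7% of protein-coding windows. A match is a description of letters and not a binding site. The median GC content of the member windows was 58.7%, and its part in these shares was not tested.

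The members were a broadly expressed group of genes in all 4 populations. After PBS, 64 of the 97 averaged 10 FPKM or more in every population, and 3 were listed at 0 in all 36 libraries. The sum over the members made up between 1.13% and 1.31% of the FPKM of nuclear protein-coding genes in GMP, and between 1.16% and 1.95% in monocytes. In the TAM tables it made up between 2.13% and 2.87% in B16 and between 1.30% and 1.61% in MC38. As gene models the members were short, with a median length of 1587 bases, against 3508 for protein-coding models, and they lay on 19 chromosomes with at most 10 on any of them and 3 on the X. A further 13 models with matching names were not protein coding, 12 of them processed pseudogenes, and 45 members overlapped another model, 13 of them on the same strand. Whether the counting used strand is not given in the sources used here, so reads of overlapping models cannot be assigned with certainty.

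Within complex I, the highest subunit after PBS was Ndufb11 in GMP (mean 89.2 FPKM), and Ndufa2 in monocytes (173) and in B16 TAM (147). Ndufb11 and Ndufa2 are both accessory subunits. Ndufb2, another accessory subunit, was the lowest in every population, with PBS means of 0.88 FPKM in GMP, 1.51 in monocytes, 0.52 in B16 and 0.26 in MC38 TAM. Its gene model is 5628 bases long and overlaps Braf and 2 other models, so this FPKM cannot be read as the level of its short mRNA. The assembly factors had a lower median PBS mean than the subunits in every population, though the ranges overlapped. Their highest PBS means were 9.37 FPKM for Ndufaf8 in GMP, 14.6 for Ndufaf7 in monocytes, 36.1 for Ndufaf8 in B16 TAM and 9.87 for Ndufaf1 in MC38 TAM. Ndufaf2 was the lowest of them in GMP, monocytes and B16 TAM, with PBS means of 1.41, 0.80 and 2.95 FPKM, and Ndufaf6 in MC38 TAM with 2.39.

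Complex II, which is also the succinate dehydrogenase of the citric acid cycle, had the same order at its ends in all 4 populations. Sdhd, a membrane anchor, was highest, with PBS means of 78.5 FPKM in GMP, 119 in monocytes, 102 in B16 and 68.2 in MC38 TAM. Sdhc, the other anchor, was lowest, with 17.8, 24.2, 38.7 and 16.99 FPKM in that order of populations. Of the complex II assembly factors, Sdhaf4 was highest, at between 6.73 and 9.84 FPKM, and Sdhaf3 lowest, at between 0.49 and 0.72.

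In complex III the Rieske iron-sulfur subunit Uqcrfs1 was highest after PBS in GMP (91.3 FPKM) and MC38 TAM (69.0), Uqcrh in monocytes (167) and Uqcr10 in B16 TAM (231). The lowest were Uqcrq in GMP (28.4), Uqcrb in monocytes (43.0), Uqcrc2 in B16 TAM (43.2) and Uqcr11 in MC38 TAM (15.8). In complex IV the highest PBS means were 192 FPKM for Cox8a in GMP, 372 for Cox4i1 in monocytes, 512 for Cox8a in B16 TAM and 155 for Cox6a1 in MC38 TAM. In monocytes the Cox4i1 mean rests on PBS replicate 2, with 675 FPKM there, against 221 and 219 in PBS replicates 1 and 3.

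In complex V the catalytic core was highest. Atp5a1 (the alpha subunit) led in GMP with 171 and in monocytes with 198 FPKM after PBS, and Atp5b (the beta subunit) led in B16 TAM with 333 and in MC38 TAM with 209. The lowest detected were Atp5g1, a gene for the membrane ring, in GMP (5.50) and monocytes (5.55), Atp5l in B16 TAM (12.3) and Atp5k in MC38 TAM (2.96).

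Several of these ranks turned when the PBS library that stood apart was left out, a choice made after seeing the data. In monocytes without PBS replicate 2, Ndufb11 (91.3 FPKM) stood above Ndufa2 (83.5) in complex I, and Uqcrfs1 (134) above Uqcrh (102) in complex III, where Uqcr11 (23.4) became the lowest. Cox7a2l (224) and Cox4i1 (220) then led complex IV, Sdhaf2 (6.18) was the highest and Sdhaf1 (0.50) the lowest complex II assembly factor, and Atp5g1 averaged 3.34. In GMP without PBS replicate 1, Uqcrh (98.8) stood above Uqcrfs1 (94.7). In MC38 TAM without PBS replicate 3, Ndufaf2 (1.98) and Sdhaf1 (0.37) were the lowest assembly factors of complexes I and II, and Atp5k averaged 4.45.

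**Figure D1:**
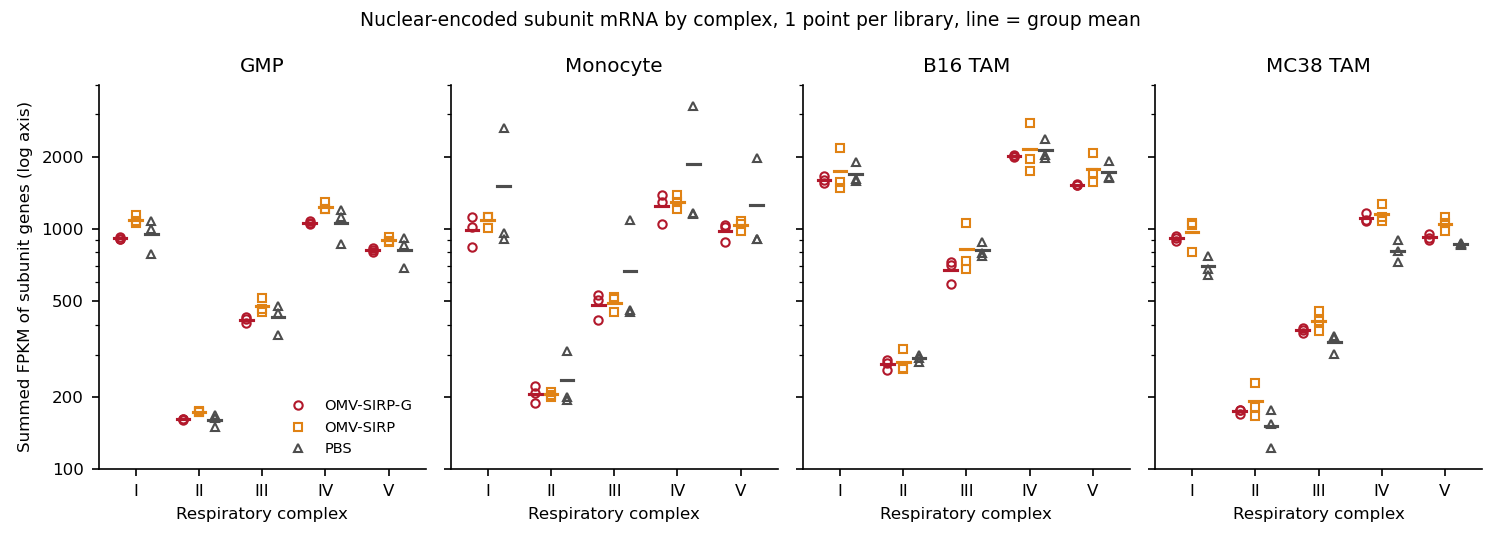
Summed FPKM of the members of complexes I to V (log axis) in each of the 36 libraries, 1 panel per population, with points for libraries and a line for each group's mean. Monocyte PBS replicate 2 stands above all other bone marrow libraries in every complex. The MC38 PBS libraries sit below the treated ones in complexes I, III, IV and V. As shares of nuclear protein-coding FPKM, complexes I and III overlapped between PBS and OMV-SIRP-G. The complex IV share was between 0.352% and 0.403% after PBS and between 0.426% and 0.468% after OMV-SIRP-G. The complex V share was between 0.392% and 0.416% after PBS and between 0.360% and 0.372% after OMV-SIRP-G.

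Subunit isoforms known from heart and skeletal muscle or from testis were low. Cox7b2 and Cox8c, testis isoforms, and Cox8b, a muscle isoform, did not pass the filter in any population. The muscle isoform Cox6a2 made up 1.24% of the summed FPKM of Cox6a1 and Cox6a2 in GMP after PBS, 1.03% in monocytes, 0.89% in B16 and 3.39% in MC38 TAM. Cox7a1 made up between 0% and 7.48% of its pair with Cox7a2 after PBS, with the highest of these values in B16 TAM, where it reached 8.20% after OMV-SIRP-G. Cox6b2, a testis isoform, made up 7.18% of its pair with Cox6b1 in GMP, 3.26% in monocytes, 0.41% in B16 and 0% in MC38 TAM. Ndufa4l2 is the hypoxia-inducible relative of the complex IV subunit Ndufa4, and after PBS its share of the pair was 26.1% in monocytes, 18.4% in MC38 TAM, 1.90% in GMP and 1.33% in B16 TAM. The MC38 share rested on PBS replicate 3 and was 4.95% without it.

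Of the 97 members, 91 could be tested in GMP, monocytes and B16 TAM and 90 in MC38 TAM, and 88 in all 4. Atp5o-2, Cox7b2, Cox8b, Cox8c and Sdhaf3 were tested nowhere. Sdhaf1 was left out in GMP, Ndufaf2 in monocytes, Ndufb2 in B16 TAM, and Ndufb2 and Cox6b2 in MC38 TAM. Across the 12 comparisons 24 members were called in at least 1 and 73 in none, and Ndufa8 was the only member called in more than 1 population.

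**Figure D2:**
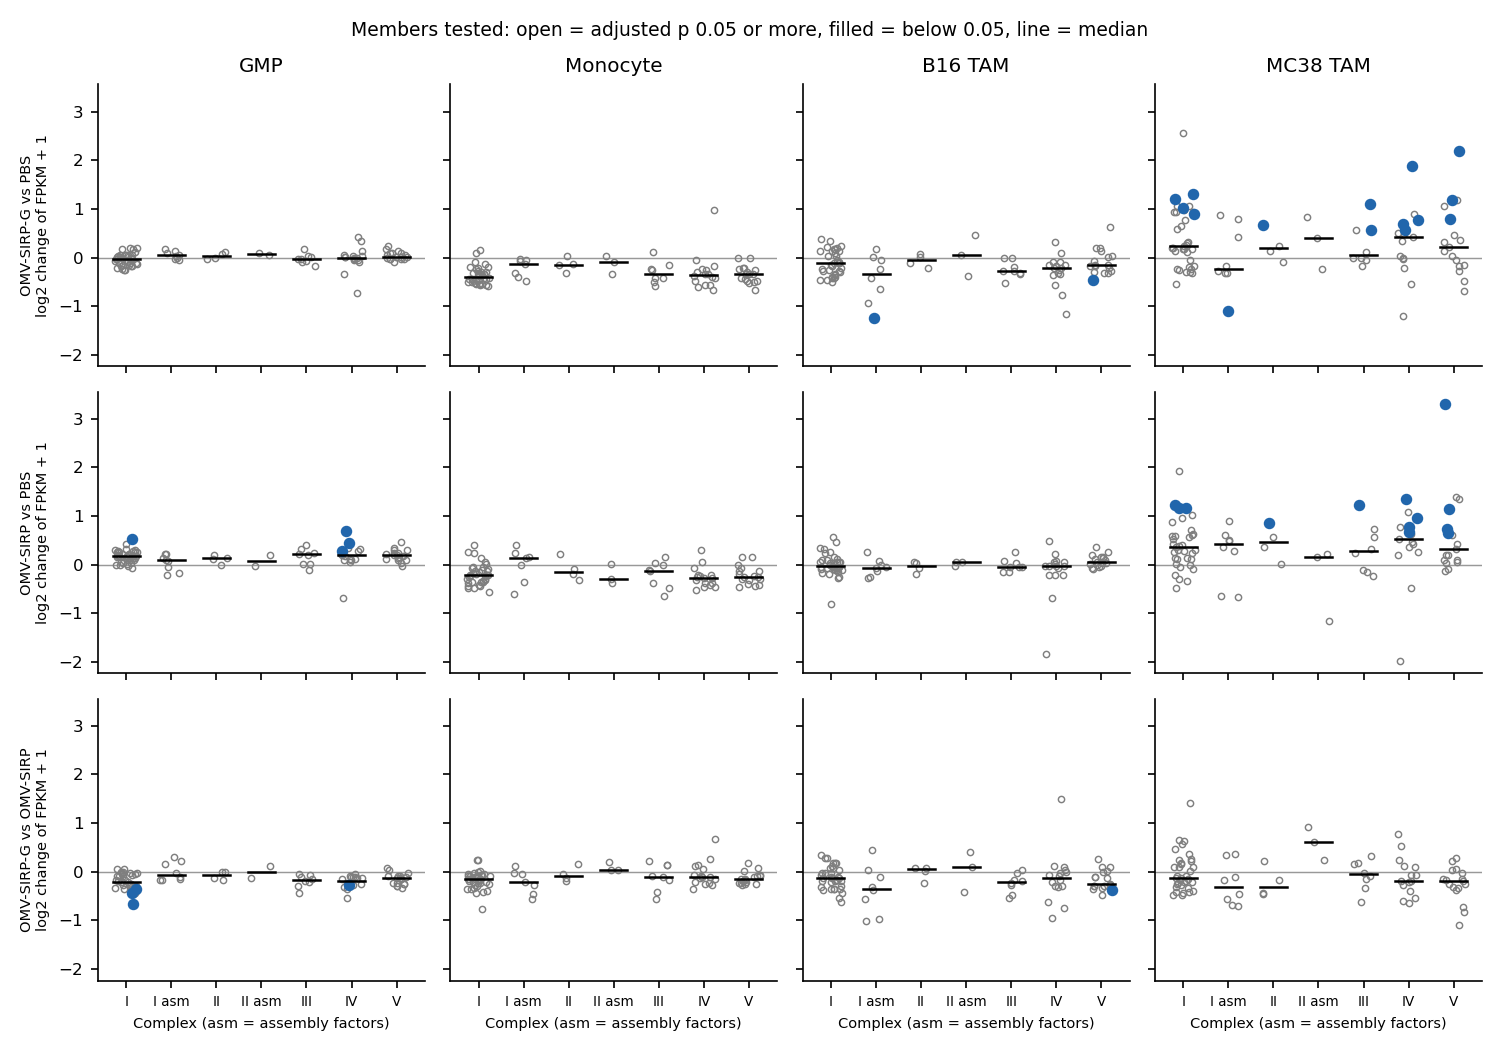
Log2 change of each tested member on the log2(FPKM + 1) scale, by complex (asm marks assembly factors), for 3 comparisons in rows and 4 populations in columns; filled points have an adjusted p under 0.05 and lines are medians. Filled points above 0 gather in MC38 TAM against PBS and few are filled elsewhere, with none in monocytes.

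In MC38 TAM, subunits of all 5 complexes rose against PBS, among them the flavoprotein of complex II and regulatory subunits of complex IV. The alpha and beta subunits of complex V did not pass the test. After OMV-SIRP-G, 14 of 90 members rose and 1 fell, so 16.7% were called, against 19.9% of all 14089 genes tested (13.1% higher, 6.86% lower). After OMV-SIRP, 13 rose and none fell, so 14.4% were called, against 10.9% of all genes (7.4% higher). Counted in either direction, the members' share was below the background in the first comparison and above it in the second. For rises alone, 14 and 13 of 90 members were above the 13.1% and 7.4% of all genes. Both comparisons used the same PBS libraries, so the values below are set side by side and their likeness is not a result.

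Rising members after OMV-SIRP-G numbered 4 of 35 in complex I, 1 of 4 in complex II, 2 of 8 in complex III, 4 of 15 in complex IV and 3 of 17 in complex V. The same counts after OMV-SIRP were 3, 1, 1, 4 and 4. None of the 8 complex I assembly factors rose in either comparison, and no complex II assembly factor was called. The median log2 change of the members was 0.23 after OMV-SIRP-G, against 0.07 over all genes, and 0.37 after OMV-SIRP, against 0.03 over all genes. Of 90 members, 25 had all OMV-SIRP-G libraries above all PBS libraries, where 25.5% of all genes did, and 24 had all OMV-SIRP libraries above them, where 15.5% of all genes did.

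Atp5k encodes subunit e of complex V, a small protein at the dimer interface (chr5:108433244-108434448, minus strand, GRCm38). It measured 11.8, 15.3 and 12.4 FPKM after OMV-SIRP-G, 14.9, 56.2 and 29.5 after OMV-SIRP, and 3.98, 4.92 and 0 after PBS. These came from 115, 156 and 129 reads after OMV-SIRP-G, 124, 468 and 285 after OMV-SIRP, and 47, 61 and 0 after PBS. All treated libraries lay above the PBS libraries, of which replicate 3 had no read. The log2 change was 2.19 ± 0.66 (SE) after OMV-SIRP-G (adjusted p = 0.0465, limma) and 3.29 ± 0.66 after OMV-SIRP (adjusted p = 0.0164). The first call was lost without any 1 of the 3 OMV-SIRP-G libraries, PBS 1 or PBS 3, with adjusted p between 0.0576 and 0.13 in limma, and without PBS 3 the change was 1.38. With a pseudocount of 0.1 neither call held, at adjusted p = 0.103 after OMV-SIRP-G and 0.0592 after OMV-SIRP.

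Cox5b encodes a zinc-binding subunit of complex IV (chr1:36691449-36693681, plus strand). It measured 52.4, 48.4 and 52.8 FPKM after OMV-SIRP-G, 35.5, 25.5 and 48.2 after OMV-SIRP, and 12.8, 16.4 and 10.96 after PBS. Every treated library was above every PBS library, and the OMV-SIRP-G libraries were above the OMV-SIRP ones. The log2 change was 1.87 ± 0.24 after OMV-SIRP-G (adjusted p = 0.00153, limma) and 1.35 ± 0.24 after OMV-SIRP (adjusted p = 0.00962). Both calls held without any 1 library.

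Ndufa3 (chr7:3617373-3620327, plus strand), an accessory subunit of complex I, measured 25.6, 22.0 and 19.8 FPKM after OMV-SIRP-G, 18.04, 20.05 and 25.4 after OMV-SIRP, and 9.95, 6.56 and 9.17 after PBS. The treated libraries did not overlap the PBS libraries. The log2 changes were 1.31 ± 0.21 (adjusted p = 0.00384, limma) after OMV-SIRP-G and 1.22 ± 0.21 (adjusted p = 0.00892) after OMV-SIRP. Its model overlaps Tfpt on the opposite strand.

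Uqcr11 (chr10:80402997-80406830, minus strand), a small subunit of complex III, measured 37.6, 26.9 and 37.4 FPKM after OMV-SIRP-G, 36.5, 34.3 and 41.3 after OMV-SIRP, and 10.7, 16.2 and 20.4 after PBS. Again no treated library reached down to the PBS range. The log2 changes were 1.09 ± 0.24 (adjusted p = 0.0143, limma) after OMV-SIRP-G and 1.23 ± 0.24 (adjusted p = 0.0147) after OMV-SIRP. The call after OMV-SIRP-G was lost without OMV-SIRP-G 1 (adjusted p = 0.0635) or OMV-SIRP-G 3 (0.0614).

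Ndufa8 (chr2:36036326-36049406, minus strand), a complex I subunit that faces the intermembrane space, measured 57.6, 41.7 and 48.9 FPKM after OMV-SIRP-G, 38.6, 20.6 and 43.6 after OMV-SIRP, and 30.5, 20.01 and 14.5 after PBS. The OMV-SIRP-G libraries lay above PBS, while the OMV-SIRP libraries overlapped them. The log2 change was 1.203 ± 0.33 after OMV-SIRP-G (adjusted p = 0.0315, limma) and 0.63 ± 0.33 after OMV-SIRP (adjusted p = 0.24). The call was lost without any 1 OMV-SIRP-G library, PBS 2 or PBS 3 (adjusted p between 0.066 and 0.111).

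Among core subunits, Sdha (the flavoprotein of complex II) and Cox4i1 (a regulatory complex IV subunit) rose in MC38 TAM. Sdha measured 37.4, 41.4 and 38.8 FPKM after OMV-SIRP-G, 38.0, 55.3 and 41.6 after OMV-SIRP, and 21.1, 27.0 and 24.7 after PBS. Cox4i1 measured 176, 196 and 193 FPKM after OMV-SIRP-G, 239, 184 and 175 after OMV-SIRP, and 93.2, 127 and 131 after PBS. For both genes every treated library was above every PBS library. The log2 changes of Sdha were 0.67 ± 0.18 after OMV-SIRP-G (adjusted p = 0.0282, limma) and 0.85 ± 0.18 after OMV-SIRP (adjusted p = 0.0187). Those of Cox4i1 were 0.69 ± 0.17 (adjusted p = 0.0236, limma) and 0.76 ± 0.17 (adjusted p = 0.0259). After OMV-SIRP-G both calls were lost without any 1 OMV-SIRP-G library or PBS 1, with adjusted p between 0.0638 and 0.103. After OMV-SIRP, Sdha lost its call without PBS 1 (adjusted p = 0.0598), and Cox4i1 without OMV-SIRP 1 (0.0762) or PBS 1 (0.0692).

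Cox7a2l, known for joining complexes III and IV into supercomplexes, measured 120, 129 and 124 FPKM after OMV-SIRP-G, 130, 114 and 103 after OMV-SIRP, and 70.5, 71.9 and 75.2 after PBS. The PBS libraries lay close together and below all treated ones. Its log2 changes were 0.77 ± 0.13 (adjusted p = 0.00452, limma) after OMV-SIRP-G and 0.66 ± 0.13 (adjusted p = 0.0146) after OMV-SIRP.

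The catalytic core of complex V did not pass the test in MC38 TAM. Atp5a1 measured 187, 205 and 184 FPKM after OMV-SIRP-G, 222, 198 and 215 after OMV-SIRP, and 212, 189 and 194 after PBS, and these ranges overlap. Its log2 change was -0.05 ± 0.12 after OMV-SIRP-G (adjusted p = 0.8, limma) and 0.09 ± 0.12 after OMV-SIRP (adjusted p = 0.643). Atp5b had log2 changes of -0.28 ± 0.14 (adjusted p = 0.186, limma) and -0.14 ± 0.14 (adjusted p = 0.544) in the same order. It measured 175, 159 and 183 FPKM after OMV-SIRP-G. These lay below PBS 1 and 2, at 216 and 188, and below the PBS mean of 209. Nor were Ndufs1, Ndufv1 and Ndufb8 of complex I, Sdhb, Uqcrc2, Uqcrfs1 and Cox5a called, and their log2 changes lay between -0.30 for Ndufs1 after OMV-SIRP and 0.59 for Ndufb8 after OMV-SIRP-G.

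The remaining rising members were named after their values were seen. In complex I they were Ndufa13 and Ndufb10, in complex III Uqcrh, the hinge protein, in complex IV Cox8a and Cox7b, and in complex V Atp5d (the delta subunit), Atp5o (the stalk protein OSCP) and Atp5g2 (the membrane ring). Ndufa13 measured 41.5, 42.5 and 38.5 FPKM after OMV-SIRP-G, 43.6, 59.7 and 36.1 after OMV-SIRP, and 19.2, 16.6 and 23.8 after PBS. Atp5o measured 27.2, 29.1 and 23.7 FPKM after OMV-SIRP-G, 23.5, 34.3 and 21.5 after OMV-SIRP, and 10.1, 13.0 and 10.7 after PBS. Neither gene had a treated library within its PBS range. Their log2 changes after OMV-SIRP-G were 1.02 ± 0.21 for Ndufa13 (adjusted p = 0.0108, limma) and 1.18 ± 0.21 for Atp5o (adjusted p = 0.00563), and both calls held without any 1 library. Atp5d held likewise at 0.79 ± 0.15 (adjusted p = 0.00815, limma). Ndufb10 measured 48.1, 38.7 and 46.3 FPKM after OMV-SIRP-G, 50.9, 58.5 and 51.4 after OMV-SIRP, and 22.9, 33.2 and 16.8 after PBS, with log2 changes of 0.89 (adjusted p = 0.0264, limma) and 1.16 (0.0156) and no overlap with PBS. Cox8a and Uqcrh were called after OMV-SIRP-G but not after OMV-SIRP, at log2 changes of 0.57 (adjusted p = 0.0172, limma) and 0.47 (0.0531) for Cox8a and of 0.56 (0.0381) and 0.58 (0.051) for Uqcrh. Cox7b and Atp5g2 were called after OMV-SIRP, with log2 changes of 0.96 ± 0.21 (adjusted p = 0.0241, limma) and 0.64 ± 0.18 (adjusted p = 0.0471), and missed the threshold after OMV-SIRP-G at 0.42 (0.196) and 0.32 (0.234). After OMV-SIRP-G, Ndufb10 and Uqcrh lost their calls without any 1 OMV-SIRP-G library, PBS 1 or PBS 3, and Cox8a without OMV-SIRP-G 1, OMV-SIRP-G 2 or PBS 1, with adjusted p between 0.0503 and 0.148 in limma. After OMV-SIRP, Atp5d lost its call without OMV-SIRP 1 or PBS 1, Atp5g2 without OMV-SIRP 1, PBS 1 or PBS 2, and Cox7b without PBS 1 or PBS 3, with adjusted p between 0.0544 and 0.121.

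Ndufaf4, an assembly factor of complex I, was the falling member in MC38 TAM. It measured 2.62, 3.17 and 2.86 FPKM after OMV-SIRP-G, 4.25, 5.04 and 3.81 after OMV-SIRP, and 8.65, 5.88 and 7.73 after PBS. The groups did not overlap. The log2 change was -1.10 ± 0.23 after OMV-SIRP-G (adjusted p = 0.0113, limma) and -0.64 ± 0.23 after OMV-SIRP (adjusted p = 0.107). Without OMV-SIRP-G 1 the call was lost (adjusted p = 0.0552).

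**Figure D3:**
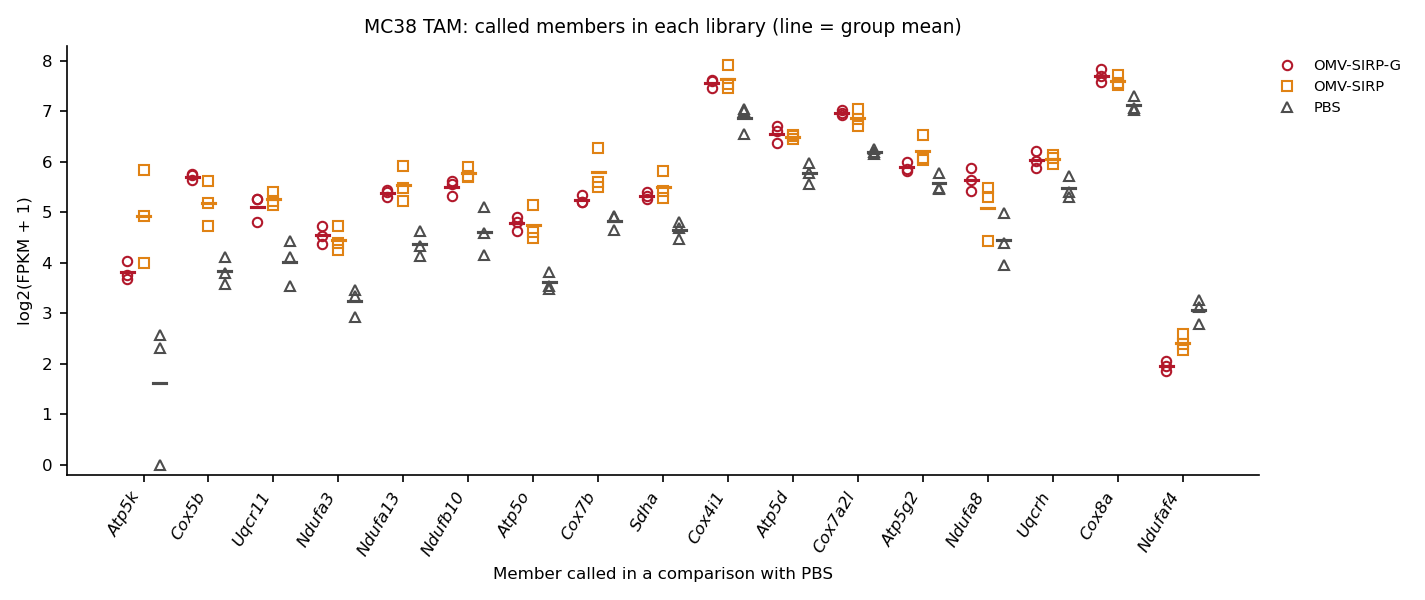
Log2(FPKM + 1) in each MC38 TAM library of the 16 members called higher in either comparison with PBS and of Ndufaf4, called lower. Points are libraries, coloured by treatment; Atp5k has a PBS library at 0, and Cox5b has its 3 PBS libraries below all 6 treated ones.

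Between the vesicle treatments no member was called in MC38 TAM, where 0.383% of all genes were. There 6 of 90 members had an unadjusted p under 0.05 in limma, against 1675 of 14089 genes. The lowest adjusted p belonged to Cox7c, a small complex IV subunit, with 45.1, 45.8 and 45.5 FPKM after OMV-SIRP-G and 81.4, 66.5 and 68.3 after OMV-SIRP. These do not overlap, and the log2 change was -0.65 ± 0.14 (adjusted p = 0.103, limma). Next came Atp5md, a small complex V subunit, with 14.7, 9.03 and 12.8 FPKM after OMV-SIRP-G and 22.8, 22.5 and 16.7 after OMV-SIRP, a log2 change of -0.73 (adjusted p = 0.222). The members' median log2 change was -0.14, against 0.05 over all genes, and it turned to 0.05 when libraries were scaled to total reads.

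The MC38 counts moved with single libraries and with the scaling. A further fit left out OMV-SIRP 2 and PBS 3 together, a choice made after seeing the data. There 25 members rose and 5 fell after OMV-SIRP-G (33.3%, against 34.6% of all genes, 20.2% higher). After OMV-SIRP, 20 rose and none fell (22.2%, against 15% of all genes, 10.2% higher). Between the treatments Cox7c then fell by 0.70 on the log2 scale, where 4.75% of all genes were called. Leaving out 1 library at a time gave between 6 and 17 calls after OMV-SIRP-G, with 6 without OMV-SIRP-G 1, 8 without either of OMV-SIRP-G 2 and 3, and 9 without PBS 1. It gave between 8 and 16 after OMV-SIRP, with 8 without PBS 1. Scaled to total reads, which moved the median of all genes to -0.08 after OMV-SIRP-G and -0.27 after OMV-SIRP, 7 members rose and 2 fell after OMV-SIRP-G, and 6 rose and 2 fell after OMV-SIRP, with a member median of 0.04 in each. When the OMV-SIRP and PBS libraries were fitted alone, none of the 13 passed, at adjusted p between 0.0563 and 0.157 in limma. Shares of all genes called are not given here for the fits with 1 library left out or with total reads.

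Other gene groups moved beside the members in MC38 TAM. The 13 subunits encoded by the mitochondrial genome had a median log2 change of 0.70 after OMV-SIRP-G, with 4 rising, and of 2.43 after OMV-SIRP, with all 13 rising, and 7 of them were lower after OMV-SIRP-G than after OMV-SIRP. The summed FPKM of these 13 was between 11.3 and 11.9 times that of the members after OMV-SIRP-G, between 27.1 and 49.5 times after OMV-SIRP, and between 5.26 and 9.08 times after PBS. Of 14 glycolytic genes, 10 rose after OMV-SIRP-G (median log2 change 1.10) and 12 after OMV-SIRP (1.14). Of 21 citric acid cycle genes, 1 rose and 3 fell after OMV-SIRP-G, and 3 fell after OMV-SIRP. Of 77 mitochondrial ribosomal protein genes tested, 1 rose and 9 fell after OMV-SIRP-G, and 2 rose and 1 fell after OMV-SIRP. Cyc1, a complex III subunit (cytochrome c1) whose name the rule does not match, was not called. Nor was Cycs, the cytochrome c that carries electrons from complex III to complex IV.

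Markers of other cells also differed between the MC38 groups. All 8 macrophage markers rose after OMV-SIRP-G and 7 of 8 after OMV-SIRP. Of 6 neutrophil markers tested, 3 fell after OMV-SIRP-G, and 4 fell and 1 rose after OMV-SIRP, with the list summing to between 31.8 and 47.6 FPKM after OMV-SIRP-G, between 33.3 and 156 after OMV-SIRP, and between 252 and 564 after PBS. Ly6g was at 0 in all MC38 libraries. The 6 epithelial markers summed to between 30.9 and 33.2 FPKM after OMV-SIRP-G, between 13.0 and 29.6 after OMV-SIRP, and between 1.73 and 14.4 after PBS, with Krt20 at 0 throughout. T and NK markers summed to between 236 and 269 FPKM after OMV-SIRP-G, between 105 and 257 after OMV-SIRP, and between 45.8 and 169 after PBS. B cell markers summed to between 34.99 and 37.5 FPKM after OMV-SIRP-G, between 3.79 and 44.9 after OMV-SIRP, and between 2.12 and 19.1 after PBS. Fibroblast and endothelial markers summed to between 25.9 and 27.9 FPKM after OMV-SIRP-G, between 48.7 and 95.6 after OMV-SIRP, and between 15.9 and 26.2 after PBS. Erythroid markers summed to between 2711 and 2964 FPKM after OMV-SIRP-G, between 3586 and 10678 after OMV-SIRP, where replicate 2 was the highest, and between 2320 and 6836 after PBS, where replicate 3 was. The part of these cells in the member changes was not tested.

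**Figure D4:**
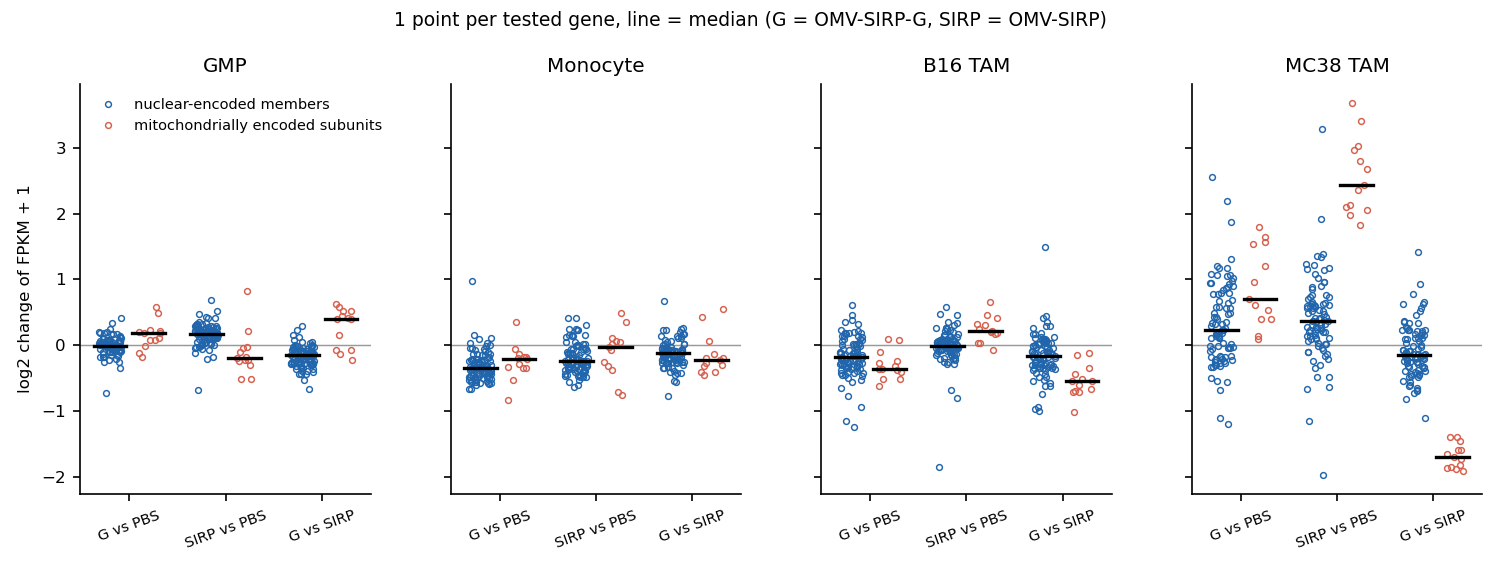
Log2 changes of the tested nuclear members (blue) and of the 13 mitochondrially encoded subunits (red) in each population and comparison, with a line at each median. In MC38 TAM after OMV-SIRP the mitochondrially encoded median is 2.43 and the nuclear median 0.37; in GMP the medians lie on opposite sides of 0 for OMV-SIRP against PBS and for OMV-SIRP-G against OMV-SIRP.

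In GMP, members of complex IV and the complex I subunit Ndufv3 rose after OMV-SIRP, and members of complexes I and IV were lower after OMV-SIRP-G than after OMV-SIRP. Against PBS, 4 of 91 members rose after OMV-SIRP and none fell, so 4.40% were called, against 18.2% of all 12287 genes (10.6% higher). Between the treatments, 4 fell after OMV-SIRP-G relative to OMV-SIRP and none rose, again 4.40%, against 14.8% of all genes (8.12% lower). Against PBS, no member was called after OMV-SIRP-G, where 12% of all genes were, and limma's voom on recovered reads called none. There 6 of 91 members had an unadjusted p under 0.05 in limma, against 3211 of 12287 genes. The called share was below the background in each. These comparisons share groups, so their values are given side by side.

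Ndufv3, an accessory subunit beside the NADH-oxidising tip of complex I (chr17:31520115-31531331, plus strand), measured 22.7, 23.3 and 24.1 FPKM after OMV-SIRP-G, 35.5, 38.8 and 38.9 after OMV-SIRP, and 22.6, 26.5 and 29.2 after PBS. The OMV-SIRP libraries lay above all others. Its log2 change was 0.52 ± 0.08 for OMV-SIRP against PBS (adjusted p = 0.00264, limma) and -0.67 ± 0.08 for OMV-SIRP-G against OMV-SIRP (adjusted p = 0.000901). For OMV-SIRP-G against PBS it was -0.15 (adjusted p = 0.309).

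Cox5a, a subunit packed against the catalytic core of complex IV (chr9:57521274-57532426, plus strand), measured 29.9, 28.8 and 29.8 FPKM after OMV-SIRP-G, 34.3, 36.2 and 36.4 after OMV-SIRP, and 27.3, 29.7 and 31.1 after PBS. Here too the OMV-SIRP libraries were the highest 3. Its log2 change was 0.27 ± 0.05 for OMV-SIRP against PBS (adjusted p = 0.00831, limma) and -0.27 ± 0.05 for OMV-SIRP-G against OMV-SIRP (adjusted p = 0.0111). The calls of Ndufv3 and Cox5a held without any 1 library.

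The other members that rose after OMV-SIRP in GMP were isoforms of restricted expression. Ndufa4l2 measured 1.11, 1.57 and 1.26 FPKM after OMV-SIRP-G, 1.82, 2.12 and 1.45 after OMV-SIRP, and 0.92, 0.67 and 0.59 after PBS. The treated libraries lay above PBS, though all values were low. Its log2 change was 0.69 ± 0.13 for OMV-SIRP (adjusted p = 0.00579, limma) and 0.42 ± 0.13 for OMV-SIRP-G (adjusted p = 0.0678). Cox6b2 measured 9.27, 9.26 and 8.96 FPKM after OMV-SIRP-G, 8.08, 11.2 and 10.8 after OMV-SIRP, and 6.53, 6.84 and 7.93 after PBS. All treated libraries were above PBS. Its log2 change was 0.44 ± 0.11 for OMV-SIRP (adjusted p = 0.0236, limma) and 0.33 for OMV-SIRP-G (adjusted p = 0.0855), and the call was lost without OMV-SIRP 2, OMV-SIRP 3, PBS 1 or PBS 2 (adjusted p between 0.0662 and 0.0856).

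Ndufa8 and Ndufb3, complex I subunits, were the other members lower after OMV-SIRP-G than after OMV-SIRP. Ndufa8 measured 41.9, 43.9 and 47.0 FPKM after OMV-SIRP-G, 56.0, 59.7 and 64.4 after OMV-SIRP, and 43.1, 55.7 and 61.5 after PBS. Ndufb3 (chr1:58586384-58595964, plus strand) measured 40.6, 38.8 and 40.3 FPKM after OMV-SIRP-G, 46.4, 52.9 and 55.0 after OMV-SIRP, and 38.4, 49.9 and 49.1 after PBS. In both, OMV-SIRP-G and OMV-SIRP did not overlap, and PBS spanned the gap between them. The log2 changes were -0.43 ± 0.12 for Ndufa8 (adjusted p = 0.0404, limma) and -0.35 ± 0.10 for Ndufb3 (adjusted p = 0.044). Neither held: Ndufa8 was lost without any 1 of the 6 libraries compared (adjusted p between 0.06 and 0.131), and Ndufb3 without any of 5, all but OMV-SIRP 1 (adjusted p between 0.101 and 0.143).

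GMP's members as a group, with those called included, moved by little, though many in the same direction. The median log2 change of the members was 0.18 for OMV-SIRP against PBS, with 80 of 91 positive, against a median of 0.02 over all genes. Without PBS replicate 1 it was 0.06, with 63 positive. For OMV-SIRP-G against OMV-SIRP it was -0.15, with 83 of 91 negative, against -0.01 over all genes. All OMV-SIRP-G libraries lay below all OMV-SIRP libraries for 45 of 91 members, where 22.4% of all genes did. As a share of nuclear protein-coding FPKM, however, the member sum overlapped between the groups. It was between 1.18% and 1.21% after OMV-SIRP-G, between 1.18% and 1.25% after OMV-SIRP, and between 1.13% and 1.31% after PBS. The core subunits Sdha and Atp5a1 had log2 changes between -0.03 and 0.03 in all 3 comparisons, none called.

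These counts depended on GMP PBS replicate 1. Without it, a choice made after seeing the data, OMV-SIRP-G against PBS gave 1 member higher and 15 lower (17.6%, against 15.5% of all genes, 6.88% lower), led by the muscle isoform Cox6a2 at -0.97 and by Cox5b at -0.52. OMV-SIRP-G against OMV-SIRP then gave 1 higher and 29 lower (33.0%, against 22.4% of all genes, 13.2% lower), of which 14 were in complex I, 2 in complex II, 2 in complex III, 7 in complex IV and 4 in complex V. OMV-SIRP against PBS gave 3 higher and 2 lower (5.49%, against 17.7%), the higher ones being Ndufa4l2, Ndufv3 and Cox5a. Without PBS replicate 3 in its place, OMV-SIRP against PBS gave 15 members higher and none lower. Leaving out any 1 of OMV-SIRP-G 1, OMV-SIRP-G 3, OMV-SIRP 2 or OMV-SIRP 3 gave 2 calls between the treatments. Scaled to total reads, the members called were 4 higher and 2 lower for OMV-SIRP against PBS, and 2 higher and 2 lower for OMV-SIRP-G against OMV-SIRP. The counts without PBS replicate 3, without a vesicle library or with total reads have no share of all genes beside them. They cannot be set against a background here.

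Beside these members in GMP, 12 of 14 glycolytic genes rose after OMV-SIRP (median log2 change 0.56) and 12 were lower after OMV-SIRP-G than after OMV-SIRP (median -0.57). Of the mitochondrially encoded subunits, 3 of 13 fell after OMV-SIRP (median -0.19) and 7 of 13 were higher after OMV-SIRP-G than after OMV-SIRP (median 0.41). The neutrophil markers summed to between 35736 and 36965 FPKM after OMV-SIRP-G, between 57181 and 59436 after OMV-SIRP, and between 27299 and 38793 after PBS. All 8 rose after OMV-SIRP, and 2 rose and 6 fell after OMV-SIRP-G relative to it. The 7 progenitor markers summed to between 5752 and 6196 after OMV-SIRP-G, between 5789 and 5988 after OMV-SIRP, and between 5046 and 6293 after PBS. The part of neutrophil RNA in the member changes was not tested.

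**Figure D5:**
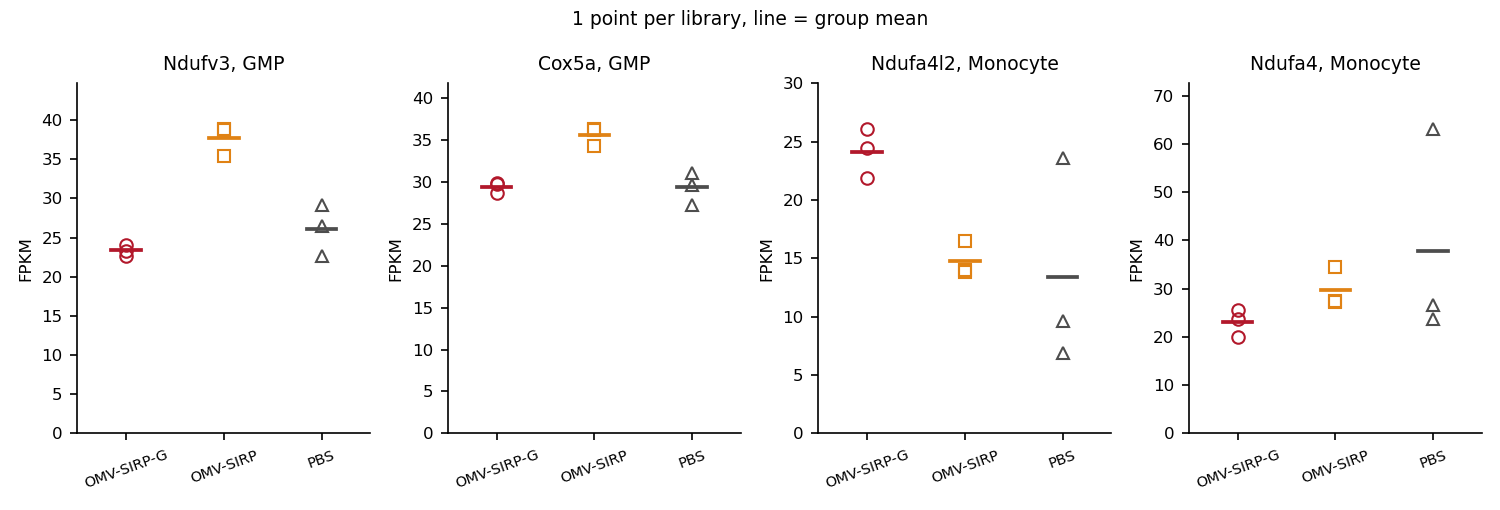
FPKM of Ndufv3 and Cox5a in the GMP libraries and of Ndufa4l2 and Ndufa4 in the monocyte libraries, with points for libraries and lines for group means. Ndufv3 and Cox5a are highest after OMV-SIRP, and monocyte PBS replicate 2 stands far above the other PBS libraries for Ndufa4l2 and Ndufa4.

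In monocytes no member was called in any comparison. The background was 3.67% of 12028 genes for OMV-SIRP-G against PBS, 8.53% for OMV-SIRP against PBS and 2.44% for OMV-SIRP-G against OMV-SIRP. In that order, 2, 4 and 2 of 91 members had an unadjusted p under 0.05 in limma, against 1863, 2790 and 1792 of 12028 genes. The member medians were -0.34, -0.23 and -0.12, with 85, 73 and 71 of 91 members negative. Without PBS replicate 2 the median was 0.10 after OMV-SIRP-G, with 71 of 91 positive, and 0.22 after OMV-SIRP, so both turned from negative to positive. Cox4i1, for example, measured 220, 173 and 242 FPKM after OMV-SIRP-G, 216, 244 and 238 after OMV-SIRP, and 221, 675 and 219 after PBS. The same library had progenitor markers summing to 1763 FPKM, against 790 and 779 in the other PBS libraries, neutrophil markers at 7283, against 2908 and 3173, and ribosomal proteins at 19.8% of nuclear coding FPKM, against 11.2% in each. The part of these in its member levels was not tested.

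Ndufa4l2 (chr10:127514967-127517154, plus strand) separated the vesicle groups in monocytes. It measured 24.4, 26.1 and 21.9 FPKM after OMV-SIRP-G, 14.0, 16.5 and 13.8 after OMV-SIRP, and 6.90, 23.6 and 9.62 after PBS. The vesicle groups did not overlap each other, and PBS replicate 2 fell among the OMV-SIRP-G libraries. With all libraries the log2 change was 0.98 ± 0.36 for OMV-SIRP-G against PBS (adjusted p = 0.232, limma), 0.30 for OMV-SIRP against PBS (0.665) and 0.67 for OMV-SIRP-G against OMV-SIRP (0.46). Without PBS replicate 2 it was 1.45 ± 0.14 (adjusted p = 0.000294, limma), 0.78 (0.00374) and 0.67 (0.00619) in that order. Its relative Ndufa4 measured 25.5, 19.97 and 23.7 FPKM after OMV-SIRP-G, 27.1, 34.4 and 27.4 after OMV-SIRP, and 26.6, 63.1 and 23.8 after PBS. Ndufa4l2 therefore made up 51.2% of the pair after OMV-SIRP-G, 33.2% after OMV-SIRP and 26.1% after PBS. Its model overlaps Shmt2 on the opposite strand.

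Among the other members with the lowest adjusted p in monocytes, Ndufs1, the large iron-sulfur subunit of complex I, measured 6.62, 7.01 and 6.93 FPKM after OMV-SIRP, and 5.50, 5.15 and 6.25 after PBS. These groups did not overlap, and the log2 change was 0.25 ± 0.10 (adjusted p = 0.185, limma). Ndufaf4 measured 1.07, 0.82 and 1.28 FPKM after OMV-SIRP-G and 1.87, 2.35 and 1.81 after OMV-SIRP, a log2 change of -0.55 (adjusted p = 0.15, limma). Uqcrc2, a core protein of complex III, measured 50.8, 49.5 and 45.5 FPKM after OMV-SIRP-G and 41.5, 39.9 and 42.9 after OMV-SIRP, a log2 change of 0.22 (adjusted p = 0.268, limma). Ndufaf7 for OMV-SIRP against PBS and Ndufb2 for OMV-SIRP-G against PBS had log2 changes of -0.60 (adjusted p = 0.155) and -0.44 (0.223).

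Without PBS replicate 2, a choice made after seeing the data, the median of the monocyte members after OMV-SIRP was above 0. Of 91 members, 16 rose and none fell (17.6%, against 30.1% of all genes, 12.6% higher), and the median log2 change was 0.22 with 77 positive. They included Ndufb8 at 0.71, Ndufs5 at 0.51 and Ndufa8 at 0.37 in complex I, Sdha at 0.29, Uqcrc1 at 0.34, Cox6a1 at 0.33, and Atp5b at 0.37 and Atp5a1 at 0.28 in complex V, named here after their values were seen. For OMV-SIRP-G against PBS only Ndufa4l2 rose (1.10%, against 12.5% of all genes). Between the treatments Ndufa4l2 and Uqcrc2 rose and 5 members fell (7.69%, against 21.2%), of which Ndufaf4 at -0.55 and Ndufs3 and Ndufb8 at -0.35 moved most.

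Beside these, no mitochondrially encoded, glycolytic or citric acid cycle gene was called for OMV-SIRP-G against PBS in monocytes. Of 14 glycolytic genes 2 fell after OMV-SIRP and 2 were higher after OMV-SIRP-G than after OMV-SIRP. Progenitor markers summed to between 225 and 270 FPKM after OMV-SIRP-G, between 418 and 471 after OMV-SIRP, and between 779 and 1763 after PBS. The part of progenitor RNA in the member levels was not tested.

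In B16 TAM, a complex I assembly factor and the catalytic subunit of complex V fell after OMV-SIRP-G. Of 91 members, 2 fell and none rose against PBS, so 2.20% were called, against 15.1% of all 12542 genes (7.28% lower). Between the treatments 1 fell and none rose (1.10%, against 12% of all genes, 5.62% lower). After OMV-SIRP no member was called against PBS, where 1.45% of all genes were, and voom called none. There 4 of 91 members had an unadjusted p under 0.05 in limma, against 1204 of 12542 genes. These shares were all below the background.

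Atp5b, the beta subunit that makes ATP (chr10:128083273-128090391, plus strand), measured 235, 239 and 249 FPKM after OMV-SIRP-G, 311, 291 and 331 after OMV-SIRP, and 373, 315 and 311 after PBS. The OMV-SIRP-G libraries lay below all 6 others. Its log2 change was -0.46 ± 0.10 against PBS (adjusted p = 0.0126, limma), which held without any 1 library. Against OMV-SIRP it was -0.37 ± 0.10 (adjusted p = 0.0421), which was lost without any 1 OMV-SIRP-G library, OMV-SIRP 1 or OMV-SIRP 3 (adjusted p between 0.0599 and 0.122). Atp5a1, the alpha subunit of the same catalytic ring, measured 296, 279 and 300 FPKM after OMV-SIRP-G, 314, 305 and 317 after OMV-SIRP, and 315, 300 and 304 after PBS. Its log2 change against PBS was -0.07 ± 0.08 (adjusted p = 0.618, limma).

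Ndufaf1, which joins parts of the complex I membrane arm during assembly (chr2:119655446-119662827, minus strand), measured 4.12, 2.28 and 1.59 FPKM after OMV-SIRP-G, 3.49, 6.13 and 9.15 after OMV-SIRP, and 7.38, 6.36 and 8.43 after PBS. The OMV-SIRP-G libraries lay below PBS and overlapped OMV-SIRP. Its log2 change against PBS was -1.25 ± 0.32 (adjusted p = 0.0256, limma). The call was lost without OMV-SIRP-G 2, OMV-SIRP-G 3 or any 1 PBS library (adjusted p between 0.0534 and 0.0874).

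The tested B16 members as a group, with those called included, leaned lower after OMV-SIRP-G. Their median log2 change against PBS was -0.17, with 64 of 91 negative, against -0.03 over all genes, and 23 members had all OMV-SIRP-G libraries below all PBS libraries, where 18.6% of all genes did. Against OMV-SIRP the median was also -0.17, against -0.02 over all genes. The core subunits Ndufs1 and Uqcrfs1 had log2 changes against PBS of -0.42 (adjusted p = 0.102, limma) and -0.31 (0.115). With libraries scaled to reads of nuclear genes, a choice made after seeing the data, 11 members fell against PBS and 10 against OMV-SIRP. The share of all genes called under this scaling is not given here, so these counts have no background. The members' medians were then -0.29 and -0.27, against -0.13 and -0.12 over all genes.

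For OMV-SIRP against PBS in B16 TAM, the lowest adjusted p belonged to complex I subunits. Ndufs4 measured 14.2, 15.1 and 19.0 FPKM after OMV-SIRP, and 10.1, 11.01 and 13.0 after PBS, and Ndufs5 measured 60.6, 54.5 and 90.5 after OMV-SIRP, and 37.9, 49.3 and 47.3 after PBS. Neither pair of groups overlapped. The log2 changes were 0.47 ± 0.16 (adjusted p = 0.306, limma) and 0.58 ± 0.22 (adjusted p = 0.413). Ndufa4l2 was listed at 0 in the 3 OMV-SIRP-G libraries, and measured 3.28, 0.18 and 0.40 FPKM after OMV-SIRP, and 0.54, 1.83 and 1.53 after PBS.

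Of the 13 mitochondrially encoded subunits in B16 TAM, 2 fell after OMV-SIRP-G against PBS and 6 against OMV-SIRP, with medians of -0.36 and -0.55. Of 14 glycolytic genes 1 rose and 5 fell against PBS, and of 21 citric acid cycle genes 3 fell. The 8 macrophage markers all rose and the 5 melanoma markers all fell after OMV-SIRP-G against each of the other groups, by the sums given above. Erythroid markers summed to between 3233 and 3267 FPKM after OMV-SIRP-G, between 2217 and 3101 after OMV-SIRP, and between 16534 and 17906 after PBS. T and NK markers summed to between 66.8 and 90.4 FPKM after OMV-SIRP-G, between 57.6 and 83.5 after OMV-SIRP, and between 172 and 229 after PBS. The part of tumour, red cell and lymphocyte RNA in the member changes was not tested.

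Genes that build or regulate the chain but lie outside the rule were counted in the same fits. Of 30 further assembly factors, at most 3 were called in any comparison, the most being 3 lower of 29 tested in MC38 TAM after OMV-SIRP, where 10.9% of all genes were called. Of 13 regulators of mitochondrial biogenesis, the most called were 1 higher and 2 lower of 11 tested in GMP after OMV-SIRP, where 18.2% of all genes were called. The cytosolic ribosomal protein genes, another abundant group of short genes, had 6 higher and 7 lower of 87 in MC38 TAM after OMV-SIRP-G and 16 higher and none lower after OMV-SIRP.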

How the data were processed

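The authors deposited FPKM values in 3 tables of 56026 (GMP with monocytes), 56575 (B16 TAM) and 57252 (MC38 TAM) gene models. Per the submitters' processing notes, reads were handled with featureCounts 1.5.0-p3, HISAT2 2.0.5 and StringTie on the build GRCm38, in an order and with settings the sources used here do not give. Per the labels' protocols, TRIzol extraction, an integrity assay and a NEBNext kit for messenger RNA came before sequencing. FPKM multiplied by gene length gave whole reads for 100% of values at a tolerance of 0.05, so low values carry a known count, and the scaling between libraries in the deposited FPKM differs from total reads.

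Group and replicate came from the sample titles and treatment labels. Values were read as deposited, with a pseudocount of 1, and genes with FPKM of at least 1 in 3 or more of a population's 9 libraries were kept. They were fitted with limma 3.58.1 (trend and robust, statmod 1.5.0, R 4.3.3), 1 fit per population over its 9 libraries and 3 comparisons in each, and p-values were adjusted by Benjamini-Hochberg over all genes of a comparison at a threshold of 0.05. Sums, shares and figures used pandas 2.3.3 and matplotlib 3.10.9. The scripts were tested on simulated data.

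The members and the gene and marker lists were chosen with earlier results of these data known. Named members are, in each comparison, up to 4 in each direction with the largest log2 change among those called (or the 2 with the lowest adjusted p), a set of core subunits, the restricted isoforms, and the highest and lowest member of each complex; others are said to have been named after their values were seen. Not every gene this rule selects is reported here. Alternatives were a pseudocount of 0.1, no filter, 3 other scalings, a fit of the compared groups alone, a replicate block, limma's voom run on whole reads recovered as above, and omission of each library in turn. No count of reads beyond those recovered, and no test between populations, was used.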

Additional observations from a re-analysis of the deposited data

Results flagged for a closer look

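Some members had called or non-overlapping changes on opposite sides in different populations: in 1 population every library of the treated group lay above every PBS library, and in another every library lay below. The differences between populations were not tested. Of all genes, 25.5% lay wholly above PBS in MC38 TAM after OMV-SIRP-G, and 18.6% lay wholly below in B16 TAM. In the other direction, 20.1% lay below in MC38 TAM and 15.6% above in GMP. How many of all genes do both was not counted, so the list is not a result about the members. After OMV-SIRP-G against PBS, the log2 changes were 1.18 in MC38 TAM and -0.28 in B16 TAM for Atp5o, 0.77 and -0.32 for Cox7a2l, 1.02 and -0.46 for Ndufa13, 0.89 and -0.42 for Ndufb10, and 0.67 and -0.12 for Sdha, in the same order. Each of these was called in MC38 TAM and not in B16 TAM. Ndufaf4 had a log2 change of -1.10 in MC38 TAM, where it was called, and 0.17 in GMP.

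After OMV-SIRP against PBS, Sdha had log2 changes of 0.85 in MC38 TAM, 0.23 in monocytes and -0.20 in B16 TAM. Ndufv3 had 0.52 in GMP and -0.56 in monocytes, and Atp5g2 had 0.64 in MC38 TAM and -0.39 in monocytes. Of all genes, 15.5% lay wholly above PBS in MC38 TAM, 19.7% in GMP and 13.3% in monocytes. Wholly below PBS were 16.5% in monocytes and 8.75% in B16 TAM. The monocyte values rest partly on PBS replicate 2, in which Ndufv3 measured 73.1 FPKM, against 29.3 and 28.7 in PBS replicates 1 and 3, and Atp5g2 135, against 72.2 and 71.2.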

How the results depend on the processing

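Most counts of called members moved under the alternatives, and some that lay on 1 side became mixed. Between the vesicle treatments in GMP, scaling to total reads left 2 members higher and 2 lower, where 4 had been lower. Member medians also changed sign in places, as given above for monocytes and MC38 TAM. Ranges with 1 library left out cover the libraries of the 2 groups compared. For OMV-SIRP against PBS in GMP, 4 members were called, and 10 by voom on recovered reads; leaving out 1 library gave between 3 and 15. For OMV-SIRP-G against PBS in GMP, 0 were called, 1 when the compared groups were fitted alone, and between 0 and 16 with 1 library left out. For OMV-SIRP-G against OMV-SIRP in GMP, 4 were called, 2 without the filter, 29 with the compared groups alone, 10 by voom, between 2 and 5 with 1 library left out, and 30 without PBS 1, which shares the fit. In monocytes, OMV-SIRP against PBS gave 0, but 1 when scaled to total reads and 1 when scaled to reads of nuclear genes, and between 0 and 16 with 1 library left out; OMV-SIRP-G against PBS gave between 0 and 1, and OMV-SIRP-G against OMV-SIRP 4 with the compared groups alone and 7 without PBS 2, which shares the fit. For B16 TAM, 2 members were called for OMV-SIRP-G against PBS, but 1 without the filter, 11 scaled to reads of nuclear genes, 9 scaled to the upper quartile, 6 with the compared groups alone, and between 1 and 2 with 1 library left out. There OMV-SIRP-G against OMV-SIRP gave 1, but 0 without the filter, 10 scaled to reads of nuclear genes, 0 with the compared groups alone, 2 by voom, and between 0 and 2 with 1 library left out; OMV-SIRP against PBS gave 0 under each alternative. In MC38 TAM, OMV-SIRP-G against PBS gave 15, but 9 without the filter, 9 scaled to total reads, 9 scaled to reads of nuclear genes, 30 without OMV-SIRP 2 and PBS 3, and between 6 and 17 with 1 library left out. OMV-SIRP against PBS gave 13, but 8 scaled to total reads, 0 with the compared groups alone, 20 without both libraries, and between 8 and 16 with 1 library left out. OMV-SIRP-G against OMV-SIRP gave 0, 0 with any 1 library left out, and 1 without both. Scaling to nuclear reads and leaving out both MC38 libraries were chosen after seeing the data, and the causes of these moves were not tested. Where no share of all genes stands beside a count, here or above, the count shows only how far the calls moved.

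Same-numbered libraries did not all deviate together: of the 9 same-number pairs of a population, the correlation of deviations exceeded 0.1 in 3 in GMP (highest 0.22), 2 in monocytes and 0 in either TAM population, against 0, 5 and 0 of 18 pairs with different numbers. Pairing in GMP was not settled. A replicate block gave 8 calls for OMV-SIRP-G against OMV-SIRP in GMP, 4 in B16 TAM for OMV-SIRP-G against PBS, and 14 and 10 for OMV-SIRP-G and OMV-SIRP against PBS in MC38 TAM. Over 51 single-member results and 744 alternative values, 592 kept their side of the threshold, 147 missed it where the reported value passed, and 5 passed where it missed. Genes of few reads, such as Atp5k after PBS with at most 61, limit what a fold change can show.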
